A study of Mus musculus with 4 samples.

Results

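The 39 mouse Hox genes were taken from mRNA-seq of mouse embryonic stem cells (mESCs), as the protein-coding genes whose symbol is Hoxa, Hoxb, Hoxc or Hoxd followed by a number. They are 39 of the 37310 genes measured, and they were chosen by name, not by value. The cells were of the JM8 line, from C57BL6/N mice, either wild-type or with the clock gene Bmal1 targeted by CRISPR/Cas9 (Bmal1-/-), and the Bmal1-/- line was 1 clone. There were 2 libraries per genotype, described by the study as biological replicates, and no time point or further treatment. All cells grew without feeders on gelatin in serum-free 2i medium with LIF, with PD0325901 against Mek (1 µM) and CHIR99021 against Gsk3 (3 µM). The comparison asks how far the Hox genes of undifferentiated mESCs differ between the wild-type and the Bmal1-/- line.

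Hox genes encode homeodomain transcription factors that give cells their position along the head to tail axis of the embryo. They lie in 4 clusters, and genes at the same place in different clusters (paralogs, which share a number) are close in sequence. In each cluster the low-numbered genes are used early and towards the head, and the high-numbered genes late and towards the tail. In mESCs the clusters carry Polycomb marks and their genes are mostly silent. Retinoic acid, Wnt signals and the Cdx factors are known to open them during differentiation.

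Between 21504265 and 23329034 reads fell on genes in a library, and a value is a gene's reads after division by the scaling factor of the library. A single read was worth a value of 0.939 to 1.06, and 3 reads, the floor used here for a gene that is hardly seen, a value of 2.82 to 3.19. Arntl, the gene for Bmal1, had values of 678 and 733 in the wild-type libraries and of 556 and 590 in the others (log2 fold change -0.30 ± 0.07, standard error, limma adjusted p = 0.00113). Its mRNA was lower but still present, and a small insertion or deletion can leave the mRNA in place, so the level of this gene does not settle the genotype and the text speaks of libraries labelled Bmal1-/-. The 10 naïve mESC markers all had over 3 reads and a summed value of 116840 to 119675 in the wild-type libraries and of 125481 to 127411 in those labelled Bmal1-/-. The libraries were bulk RNA, in which more cells with a transcript and more transcript per cell cannot be told apart.

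The Hox genes were expressed at a low level and, as a family, more strongly in the libraries labelled Bmal1-/-. The 39 genes together held 732 and 743 reads in the wild-type libraries against 1269 and 1285 reads in those labelled Bmal1-/-, or 33.7 and 34.6 against 54.4 and 55.8 for every 1000000 reads on genes. Their summed value was 1.55 times as high in the libraries labelled Bmal1-/-. 9 Hox genes (23.1%) were at or under 3 reads in all 4 libraries, namely Hoxa11, Hoxb1, Hoxb3, Hoxb5, Hoxb6, Hoxb8, Hoxd3, Hoxd4 and Hoxd12, and Hoxb5 had no read at all. Of the 22380 protein-coding genes, 31.6% were as low. For 15 Hox genes neither wild-type library exceeded 3 reads, and for 9 neither library labelled Bmal1-/- did.

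**Figure D1:**
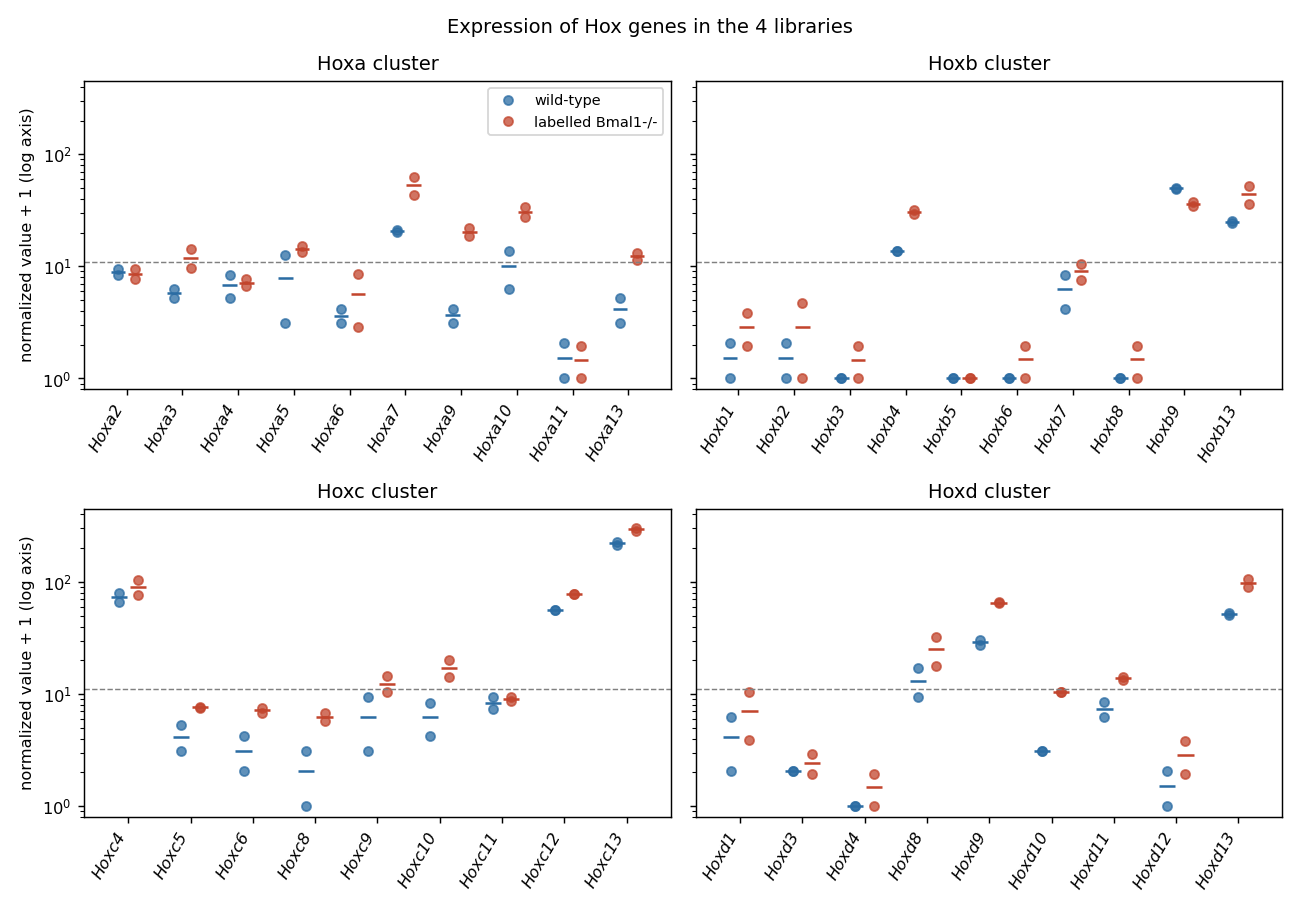
Normalized value + 1 (log axis) of 38 Hox genes, one panel per cluster, with 1 point per library, a short bar at the mean of each genotype and a dashed line at the value of 10 whose mean a gene had to reach to be tested. Hoxc13 stood highest, many genes lay under the dashed line in the wild-type libraries, and Hoxb9 was the gene with both red points under both blue points.

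Of the 30 Hox genes with over 3 reads in at least 1 library, 21 had both libraries labelled Bmal1-/- above both wild-type libraries, 1 (Hoxb9) had both below, and in 8 the genotypes overlapped. Among all 18062 genes with that many reads, 34.5% had both libraries labelled Bmal1-/- above and 36.0% both below. Of such genes with a mean value under 100, 37.9% had both libraries above. Of the 28 Hox genes with a mean under 100, 19 had both above and 1 both below. The 54 other homeobox genes with over 3 reads (of 73 listed, from families such as Dlx, Lhx and Nkx) had both above in 20 and both below in 18. For 6 of the 30 Hox genes neither wild-type library exceeded 3 reads, whereas every one exceeded it in at least 1 library labelled Bmal1-/-. Those 6 entered through the libraries labelled Bmal1-/-, so the Hox counts are not free of direction. These orders are given as counts, and the lists were not compared by a test.

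**Figure D2:**
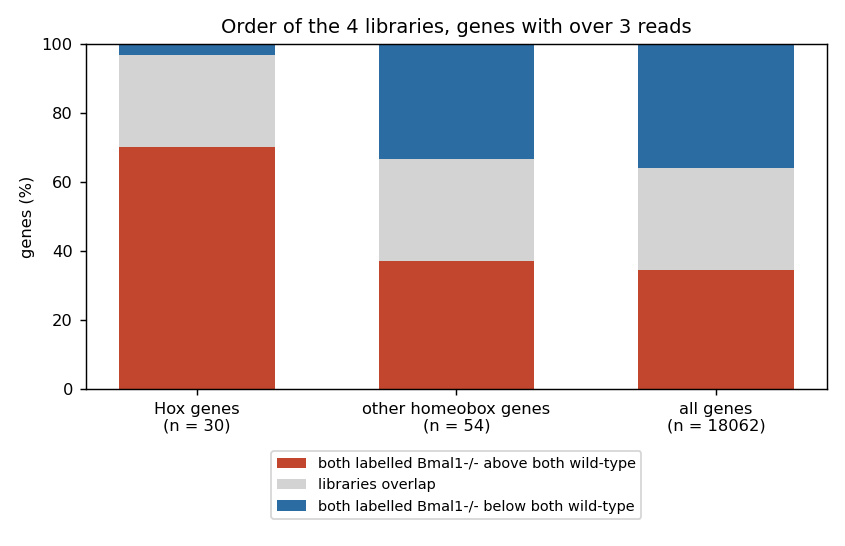
Percentage of genes (vertical axis) in which both libraries labelled Bmal1-/- lay above both wild-type libraries, overlapped them or lay below both, for the 30 Hox genes, 54 other homeobox genes and 18062 genes of the table with over 3 reads in at least 1 library. The upper, blue section is nearly missing for the Hox genes, with 1 gene, and is 36.0% of all genes. For 6 of the 30 Hox genes neither wild-type library exceeded 3 reads.

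To show what stands before the starts of the genes that differed, windows from 250 bases before to 50 after the annotated start were taken from RefSeq (build GRCm38.p6), which gave 24 windows for 22 of the Hox genes. Hoxa4, Hoxb2, Hoxb3, Hoxb5, Hoxb6, Hoxb7, Hoxb9, Hoxb13, Hoxc5, Hoxc6, Hoxc8, Hoxc9, Hoxc10, Hoxc11, Hoxc12 and Hoxc13 had no window. Hox windows were rich in CG dinucleotides, the sites of DNA methylation, with a median of 14.5 against 7 over all 32817 windows of the table. 17 of the 24 windows (70.8%) held 10 or more, against 43.5% of all windows. The windows of Hoxa9, Hoxb4 and Hoxd9, 3 genes that were over 2-fold higher in the libraries labelled Bmal1-/-, hold 4, 14 and 20 CG dinucleotides, shown in capitals. They lie at chr6:52227321-52227620, minus strand, chr11:96318017-96318316, plus strand, and chr2:74697513-74697812, plus strand.
Hoxa9: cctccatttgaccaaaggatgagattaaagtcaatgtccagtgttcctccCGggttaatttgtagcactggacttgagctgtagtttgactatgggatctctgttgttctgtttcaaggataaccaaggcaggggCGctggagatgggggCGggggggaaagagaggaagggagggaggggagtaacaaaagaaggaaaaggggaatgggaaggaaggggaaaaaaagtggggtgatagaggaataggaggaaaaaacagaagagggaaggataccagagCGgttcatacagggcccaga
Hoxb4: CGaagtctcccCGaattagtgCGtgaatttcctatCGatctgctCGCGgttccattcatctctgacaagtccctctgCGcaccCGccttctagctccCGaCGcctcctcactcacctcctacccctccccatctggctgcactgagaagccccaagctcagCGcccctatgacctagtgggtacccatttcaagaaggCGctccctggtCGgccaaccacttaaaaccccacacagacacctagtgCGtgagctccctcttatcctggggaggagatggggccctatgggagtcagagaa
Hoxd9: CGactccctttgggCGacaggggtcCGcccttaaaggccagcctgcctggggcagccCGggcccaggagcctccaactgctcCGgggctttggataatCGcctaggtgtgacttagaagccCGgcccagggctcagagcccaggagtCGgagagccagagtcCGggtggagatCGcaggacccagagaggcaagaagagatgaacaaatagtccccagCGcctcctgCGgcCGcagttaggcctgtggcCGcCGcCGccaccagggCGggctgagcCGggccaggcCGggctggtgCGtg

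Bmal1 with its partner Clock is known to bind the E-box CACGTG, which reads the same on both strands and contains a CG. It was found in 5 of the 24 Hox windows (20.8%) and in 7.15% of all windows. Hox windows also held more CG dinucleotides (median 14.5 against 7), and the shares were not adjusted for that. All 5 belonged to the Hoxd cluster (Hoxd1, Hoxd4, Hoxd10, Hoxd11 and Hoxd13, of 10 windows), and none of the 14 windows of the other clusters held it. Those 14 were 10 Hoxa, 3 Hoxb and 1 Hoxc windows, so most Hoxb and Hoxc genes were not searched. The windows of Hoxa7, Hoxa9, Hoxa10, Hoxb4 and Hoxd9, the genes past both thresholds below that had a window, held none. The TATA motif TATAAA, searched on both strands, was in 4 Hox windows (16.7%) and in 13.6% of all windows. Of the 5 genes with the E-box, Hoxd10, Hoxd11 and Hoxd13 were higher in both libraries labelled Bmal1-/-. Hoxd1 overlapped between the genotypes, and Hoxd4 did not exceed 1 read in any library. Hoxd8 and Hoxd9, of the same cluster and with no E-box in their windows, were also higher in both. A part of the E-box in these values was not tested. In Hoxd11 it starts at position -96. Hoxd10 and Hoxd13 are shown as examples with the E-box in capitals. It starts at position -73 from the start of Hoxd10 and at -229 from that of Hoxd13. Their windows lie at chr2:74691641-74691940, plus strand, and chr2:74667975-74668274, plus strand.
Hoxd10: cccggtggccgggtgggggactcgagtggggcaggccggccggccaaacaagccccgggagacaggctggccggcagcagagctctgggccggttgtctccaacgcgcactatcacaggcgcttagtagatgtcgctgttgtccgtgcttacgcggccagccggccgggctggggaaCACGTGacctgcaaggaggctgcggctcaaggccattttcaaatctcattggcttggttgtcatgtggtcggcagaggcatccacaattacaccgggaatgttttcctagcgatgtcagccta
Hoxd13: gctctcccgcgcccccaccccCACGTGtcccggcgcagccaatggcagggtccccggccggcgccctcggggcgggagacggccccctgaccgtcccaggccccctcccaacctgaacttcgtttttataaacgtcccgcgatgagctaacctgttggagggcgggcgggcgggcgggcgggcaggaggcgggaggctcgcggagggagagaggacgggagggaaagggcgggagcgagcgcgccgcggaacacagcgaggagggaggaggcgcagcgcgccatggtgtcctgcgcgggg

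Tests were made by limma on log2(value + 1) over the 14510 genes whose mean value was 10 or more, and a gene was called with an adjusted p under 0.05 and a change above 2-fold (a log2 fold change beyond 1 in size). 15 Hox genes could be tested, and 24 were under the filter. Of the 15, 12 were higher in the libraries labelled Bmal1-/- at an adjusted p under 0.05 and none was lower, where 24.0% of all tested genes were higher and 28.6% lower. 6 passed both thresholds, all of them higher, against a background of 7.21% of all tested genes (5.75% higher and 1.45% lower). Among tested genes with a mean under 100 the share called higher was 14.9%, and 13 of the tested Hox genes were that low. 4 of the tested genes (Hoxa5, Hoxa9, Hoxa10 and Hoxc10) had a wild-type mean under 10 and reached the filter through the libraries labelled Bmal1-/-, so the counts among tested genes are not free of direction. The median log2 fold change of the 15 genes was 0.93, beside -0.03 over all tested genes and 0.17 over tested genes with a mean under 100. Without Bmal1-/- replicate 2 the genes at an adjusted p under 0.05 were 6 instead of 12, and DESeq2 gave 7. Among the genes past both thresholds, Hoxa10 lost its adjusted p under 0.05 in limma with no filter (0.0661) and without trend (0.0529), Hoxb4 in DESeq2 (0.0691, and 0.108 with no filter) and without Bmal1-/- replicate 2 (0.0514), and Hoxc10 in 7 alternatives, up to an adjusted p of 0.155 in DESeq2 with no filter, with 0.140 without Bmal1-/- replicate 2 and 0.0623 without wild-type replicate 2. Hoxa7, Hoxa9 and Hoxd9 kept theirs in every alternative that tested them. Of the genes under a 2-fold change, Hoxd13 and Hoxc13 kept theirs as well, whereas without Bmal1-/- replicate 2 the limma adjusted p was 0.457 for Hoxd8, 0.244 for Hoxb13 and 0.123 for Hoxc12. Hoxd8 also lost it without wild-type replicate 1 (0.254) and Hoxc12 without Bmal1-/- replicate 1 (0.116).

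**Figure D3:**
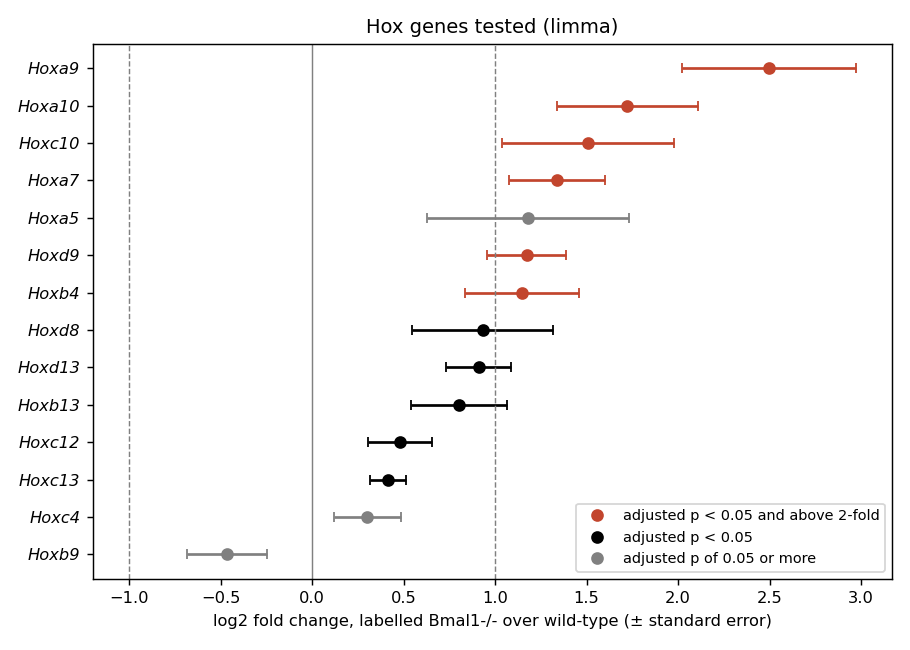
Log2 fold change (horizontal axis, labelled Bmal1-/- over wild-type) of 14 Hox genes tested, with bars of 1 standard error from limma, a solid line at 0 and dashed lines at a 2-fold change. 13 genes lie right of 0, from Hoxc4 at 0.30 to Hoxa9 at 2.50, and Hoxb9 lies left of it at -0.47.

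The Hoxa cluster (11 genes, mm9, chr6:52105366-52210874) had a summed value of 208 and 220 in the wild-type libraries and of 371 and 344 in those labelled Bmal1-/-, 1.67 times as high. Of its 10 genes with over 3 reads in at least 1 library, 7 had both libraries labelled Bmal1-/- above both wild-type libraries. None had both below. Among all genes with that many reads these shares were 34.5% and 36.0%. Hoxa9, a gene of the trunk and of blood progenitors, had values of 2.11 and 3.19 in the wild-type libraries and of 17.8 and 21.0 in the libraries labelled Bmal1-/-. It went from 2 and 3 reads, near the floor, to 19 and 22. The log2 fold change was 2.50 ± 0.48 (limma adjusted p = 0.000176), the largest among the Hox genes tested. The ratio of summed reads, after scaling for the libraries, was 7.34, with an exact 95% counting interval of 2.90 to 23.8. Hoxa10, which shapes the lumbar vertebrae and the uterus, had 12.6 and 5.31 in the wild-type libraries against 32.9 and 26.7 in the others. The wild-type libraries differed by more than 2-fold, yet both lay under both others, with a log2 fold change of 1.72 ± 0.38 (limma adjusted p = 0.000810). Hoxa7, a gene of the thoracic trunk, had 20.0 and 19.1 against 62.0 and 42.0. Its wild-type libraries were nearly alike and the others spread more (log2 fold change 1.34 ± 0.26, limma adjusted p = 0.000229).

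Hoxa5, a gene of the lung and neck, had 2.11 and 11.7 in the wild-type libraries against 14.1 and 12.4. The wild-type libraries disagreed, with 2 and 11 reads, and the gene did not pass the test (log2 fold change 1.18 ± 0.55, limma adjusted p = 0.0793). Leaving out wild-type replicate 2 gave Hoxa5 a log2 fold change of 2.19 and a limma adjusted p of 0.000603, and leaving out wild-type replicate 1 gave 0.16, so that its value rested on 1 library.

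Other Hoxa genes were under the filter and were not tested there. Hoxa13, a gene of the digits and hindgut, had 2.11 and 4.25 in the wild-type libraries against 12.2 and 10.5 in the others, with every library labelled Bmal1-/- above 10. Hoxa3, which the thymus and parathyroid need, had 5.27 and 4.25 against 13.2 and 8.58, also without overlap. Hoxa2, a gene of the hindbrain and second pharyngeal arch, had 8.43 and 7.44 against 8.45 and 6.68, Hoxa4 had 7.37 and 4.25 against 5.64 and 6.68, and Hoxa6 had 3.16 and 2.12 against 7.52 and 1.91. These last genes overlapped between the genotypes. Hoxa3 shares 33.0% of its exon bases with genes on the same strand, so that its reads could not be assigned to it alone. With both strands counted, the shared bases were 53.5% in Hoxa3, 20.4% in Hoxa7 and 5.67% in Hoxa9. Other Hox genes, such as Hoxc5 (15.4%) and Hoxc10 (8.70%), share bases with genes on their strand too.

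The Hoxb cluster (10 genes, chr11:96055630-96229570) had the fewest reads, with 5 genes at or under 3 reads in every library and a summed value of 91.7 and 91.4 in the wild-type libraries and of 114 and 128 in those labelled Bmal1-/-. The other 5 genes had over 3 reads in at least 1 library. Of these, 2 had both libraries labelled Bmal1-/- above both wild-type libraries and 1 had both below. Among all genes with that many reads these shares were 34.5% and 36.0%. Hoxb4, known for expanding blood stem cells, had 12.6 and 12.7 in the wild-type libraries against 28.2 and 30.5 in the others. Replicates were close in both genotypes, and the log2 fold change was 1.15 ± 0.31 (limma adjusted p = 0.00398). Hoxb13, a gene of the tail and prostate, had 23.2 and 24.4 against 34.8 and 51.5. The groups did not overlap, but the libraries labelled Bmal1-/- were far apart (log2 fold change 0.81 ± 0.26, limma adjusted p = 0.0139).

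Hoxb9, which patterns the ribs, was the gene of the family with both libraries labelled Bmal1-/- below both wild-type libraries. It had values of 48.5 and 48.9 in the wild-type libraries and of 36.6 and 33.4 in those labelled Bmal1-/-, with close replicates in both genotypes. The difference did not pass the test (log2 fold change -0.47 ± 0.22, limma adjusted p = 0.0820), but it did in limma without the trend (adjusted p = 0.0219) and after quantile normalization (limma adjusted p = 0.0111). Hoxb9 held 52.9% and 53.5% of the reads of its cluster in the wild-type libraries against 32.2% and 26.1% in the others, and without it the sum of the cluster was 2.00 times as high in the libraries labelled Bmal1-/-, instead of 1.32 times with it. Hoxb7 had 7.37 and 3.19 against 6.58 and 9.54, and Hoxb2 had 0 and 1.06 against 3.76 and 0. Both overlapped between the genotypes, and Hoxb7 shares 26.2% of its exon bases with genes on its strand.

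The Hoxc cluster (9 genes, chr15:102751534-102867274) had the most reads and no gene at or under 3 reads in every library. Its summed value was 368 and 374 in the wild-type libraries against 501 and 525 in those labelled Bmal1-/-, 1.38 times as high. 7 of the 9 genes had both libraries labelled Bmal1-/- above both wild-type libraries. Among all genes with over 3 reads in at least 1 library this share was 34.5%. Hoxc6 and Hoxc8, which are among the 7, exceeded 3 reads only in the libraries labelled Bmal1-/-. Hoxc13, which hair and nails need, had 213 and 226 in the wild-type libraries against 300 and 286 in the others. It was the Hox gene with most reads in every library, with 27.6% and 28.7% of all Hox reads in the wild-type libraries against 25.1% and 23.3% in those labelled Bmal1-/-. Its log2 fold change was 0.41 ± 0.10 (limma adjusted p = 0.00125). Hoxc12 had 54.8 and 55.2 against 77.0 and 77.2. Its replicates were within 1% of each other, and it rose by a log2 fold change of 0.48 ± 0.18 (limma adjusted p = 0.0280). Hoxc10, a gene of the lumbar spinal cord, had 7.37 and 3.19 against 13.2 and 19.1. All its values were low, but the genotypes were apart (log2 fold change 1.51 ± 0.47, limma adjusted p = 0.0107).

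Hoxc4, at the head end of the cluster, had 79.0 and 64.8 in the wild-type libraries against 75.2 and 104 in those labelled Bmal1-/-. The groups overlapped, and it did not pass the test (log2 fold change 0.30 ± 0.18, limma adjusted p = 0.176). The remaining genes of the cluster were under the filter. Hoxc5 had 2.11 and 4.25 against 6.58 and 6.68, Hoxc6 had 1.05 and 3.19 against 6.58 and 5.72, and Hoxc8 had 2.11 and 0 against 4.70 and 5.72. Each of these neighbouring genes was higher in both libraries labelled Bmal1-/-, by a few reads. Hoxc9 had 2.11 and 8.50 against 9.39 and 13.4, also without overlap, and Hoxc11 had 6.32 and 8.50 against 8.45 and 7.63, which overlapped.

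The Hoxd cluster (9 genes, chr2:74506367-74603200) had a summed value of 104 and 104 in the wild-type libraries and of 207 and 228 in those labelled Bmal1-/-, 2.09 times as high, and 2.26 times as high without Hoxd13. 3 genes were at or under 3 reads in all libraries. Of the other 6 genes, 5 had both libraries labelled Bmal1-/- above both wild-type libraries. Among all genes with over 3 reads in at least 1 library this share was 34.5%. Hoxd9, a gene of the trunk and forelimb, had 29.5 and 26.6 in the wild-type libraries against 64.8 and 63.9 in the others. The replicates were close and the groups far apart, with a log2 fold change of 1.17 ± 0.22 (limma adjusted p = 0.000128). Hoxd13, which shapes the digits and whose window is printed above, had 51.6 and 49.9 against 88.3 and 105. It had the most reads of the cluster, was higher in both libraries, and stayed just under the 2-fold limit (log2 fold change 0.91 ± 0.18, limma adjusted p = 0.000202). Hoxd8, a trunk gene, had 8.43 and 15.9 against 16.9 and 31.5. Each genotype had a low and a high library, and the higher wild-type library lay just under the lower of the others (log2 fold change 0.93 ± 0.38, limma adjusted p = 0.0473).

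The Hoxd genes under the filter included neighbours that act together in the forearm and digits. Hoxd10 had 2.11 and 2.12 in the wild-type libraries against 9.39 and 9.54 in the others, that is 2 reads each against 10 reads each. Hoxd11 had 5.27 and 7.44 against 13.2 and 12.4. Both were higher in both libraries labelled Bmal1-/-, whereas Hoxd1, at the other end of the cluster, had 5.27 and 1.06 against 9.39 and 2.86 and overlapped. With no filter, which tests every gene with a read, edgeR gave Hoxd10 an adjusted p of 0.029 and Hoxa13 an adjusted p of 0.047, and limma on genes with a mean of at least 1 gave 0.015 and 0.028. In limma with no filter Hoxd10 alone among the Hox genes under the filter passed, with an adjusted p of 0.024, and Hoxa13 had one of 0.055. In DESeq2 with no filter neither passed (adjusted p of 0.173 for Hoxd10 and 0.188 for Hoxa13).

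**Figure D4:**
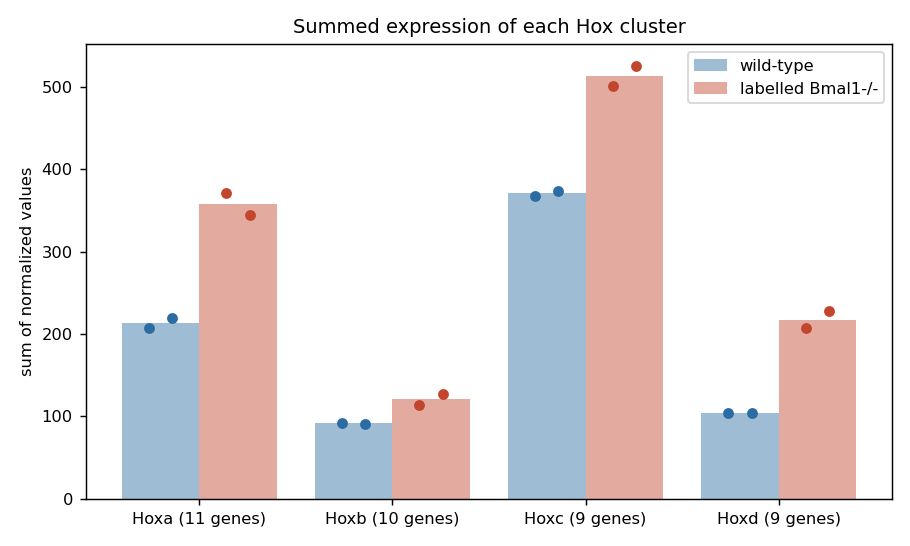
Summed normalized value (vertical axis, from 0) of the genes of each Hox cluster, with bars at the mean of the 2 libraries of a genotype and points at the single libraries. In every cluster both libraries labelled Bmal1-/- lie above both wild-type libraries, with ratios of 1.67 for Hoxa, 1.32 for Hoxb, 1.38 for Hoxc and 2.09 for Hoxd.

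Ordered by position along the body axis, the share of genes higher in both libraries grew towards the tail end. The ratios of the sums did not follow that order. Both libraries labelled Bmal1-/- lay above both wild-type libraries in 3 of 12 anterior genes (paralogs 1 to 4), in 9 of 15 central genes (paralogs 5 to 9) and in 9 of 12 posterior genes (paralogs 10 to 13). Of the anterior genes 4 were at or under 3 reads in all libraries, of the central genes 3 and of the posterior genes 2, so that part of this order lay in genes too low to compare. Among genes with over 3 reads in at least 1 library the counts were 3 of 8, 9 of 12 and 9 of 10. These counts are not free of direction. Hoxb2 (anterior), Hoxa6, Hoxa9, Hoxc6 and Hoxc8 (central) and Hoxd10 (posterior) exceeded 3 reads only in libraries labelled Bmal1-/-. Of all genes with over 3 reads in at least 1 library 34.5% had both libraries labelled Bmal1-/- above, a share that the anterior genes stood near. The sums were 1.38, 1.83 and 1.56 times as high. All 4 paralog 13 genes and all 3 paralog 10 genes were higher in both libraries. The paralog 10 genes had a summed value of 22.1 and 10.6 in the wild-type libraries and of 55.4 and 55.3 in the others, a ratio of 3.38. Within paralog 9, Hoxa9, Hoxc9 and Hoxd9 were higher in both libraries and Hoxb9 was lower in both. The clusters and classes were not compared by a test.

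Levels can be compared between genes only per length, and are given here as mean value per kilobase of exon. In the wild-type libraries the genes described here followed each other as Hoxc13 (89.2), Hoxc12 (53.4), Hoxc4 (28.1), Hoxd13 (20.4), Hoxb9 (18.9), Hoxd9 (12.8), Hoxb13 (10.8) and Hoxa7 (6.80). Among these no neighbours in the order overlapped between their 2 libraries, and the next gene, Hoxd8 (4.44), overlapped with its follower Hoxa5 (3.67). In the libraries labelled Bmal1-/- Hoxc13 (119) and Hoxc12 (74.8) were still the highest of these, and Hoxb9 (13.6) lay under Hoxd9 (29.5), Hoxb13 and Hoxa7, which it had exceeded in the wild-type libraries. Hoxd13 (38.9) and Hoxc4 (35.0) could not be ranked there, nor could Hoxb13 (19.5) and Hoxa7 (18.1), since their libraries overlapped. Even Hoxc13 reached only the 64.8th percentile of protein-coding genes in the wild-type libraries.

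Genes that act with or on the Hox clusters were described from hand-written lists. In the counts of this and the later lists, higher and lower mean an adjusted p under 0.05 in limma. Of all tested genes 24.0% were higher and 28.6% lower in this sense, and counts near these shares say little about a list. Of the 9 TALE cofactors, homeodomain proteins that bind DNA beside Hox proteins, all were tested, 3 were higher and 2 lower. Among those that changed, Pknox2 (log2 fold change 0.87) and Meis2 (0.58) were higher, and Meis3 (-0.73) and Pbx2 (-0.64) were lower. Of the 6 Cdx and ParaHox genes 2 were tested. Cdx1, a Wnt and retinoic acid target that activates Hox genes, was higher (log2 fold change 0.25, limma adjusted p = 0.000171), and Cdx2 was lower (log2 fold change -0.74, limma adjusted p = 0.00427). Cdx4 had 2 reads in each wild-type library and 6 in each of the others.

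The 20 Polycomb genes, whose products hold Hox clusters silent, were all tested. 7 were higher and 6 lower, and none passed both thresholds. The largest changes were those of Kdm2b (log2 fold change 0.73), Phc2 (-0.63), Mtf2 (0.62) and Suz12 (0.58). Of the 10 trithorax-side genes, which keep Hox genes active, 2 were higher and 3 lower, none past both thresholds. Kmt2a, a methyltransferase that Hox genes depend on, was higher by a log2 fold change of 0.55, and Dpy30, a subunit of its complexes, was lower by one of -0.39.

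Of 19 retinoic acid genes 13 were tested, 7 were higher and 4 lower, with a median log2 fold change of 0.60. Dhrs3, an enzyme that returns retinal to retinol and a known retinoic acid target, had 36.9 and 36.1 in the wild-type libraries against 125 and 123 in the others (log2 fold change 1.74, limma adjusted p = 6.5e-08). Aldh1a3, which makes retinoic acid, had 26.3 and 23.4 against 62.9 and 62.9 (log2 fold change 1.31, limma adjusted p = 5.7e-05). Among the 4 lower genes, Crabp2 had 43.2 and 43.6 against 29.1 and 17.2 (log2 fold change -0.92, limma adjusted p = 0.00769). Rara was lower too (log2 fold change -0.32, limma adjusted p = 0.00044). Cyp26a1, too low to test, had 4 and 1 reads in the wild-type libraries against 1 and 0. The part of retinoic acid in the Hox values was not tested.

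Genes in and beside the clusters were counted in the same way. Of 32 other genes lying inside the clusters, such as antisense transcripts and microRNA genes, 24 were at or under 3 reads in all libraries and 3 were tested. Gm53, in the Hoxb cluster, had 497 and 479 in the wild-type libraries against 690 and 649 in the others (log2 fold change 0.45, limma adjusted p = 1.7e-05). Gm11539 was higher as well (log2 fold change 0.65, limma adjusted p = 0.0396), and Gm15051 was not (-0.07, limma adjusted p = 0.813). Of the 16 protein-coding genes nearest to the cluster ends 13 were tested, 2 were higher, 7 lower and none past both thresholds. The largest change was that of Evx1, a homeobox gene next to Hoxa13, at -0.80 (limma adjusted p = 0.00466). Of the 73 other homeobox genes 32 were tested, 10 were higher and 6 lower, with a median log2 fold change of -0.13. Past both thresholds, Pitx3 (log2 fold change 2.25), Pitx1 (1.84), Dlx3 (1.78), Prrx2 (1.30) and Tlx2 (1.29) were higher, and Pax6 (-1.71) and Nkx6-2 (-1.35) were lower.

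Markers of other cell types moved in both directions. The 8 genes of posterior or axial progenitors, the tail-end cells in which Hox clusters open, had a summed value of 894 and 803 in the wild-type libraries and of 545 and 565 in the others, and none was at 0 in all 4 libraries. Of the 4 tested, none was higher and 3 were lower, and Wnt3a, a signal of the tail bud, had 123 and 124 against 62.0 and 60.1 (log2 fold change -1.01, limma adjusted p = 1.6e-05). The 10 naïve mESC genes were split, with 4 higher and 5 lower and none past both thresholds, and Dppa3 had the largest log2 fold change (-0.95). Neural markers (8 genes, 5 tested, 1 higher and 2 lower, Fabp7 at 0 in all 4 libraries) summed to 3899 to 4150 in the wild-type libraries and to 2336 to 2532 in the others. Most of this fall was that of Tubb3, with 2785 and 2512 against 1192 and 1088. Past both thresholds were Sox3 (log2 fold change 1.32), Pax6 and Tubb3 (-1.22).

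Mesoderm or fibroblast markers (8 genes, 4 tested, 1 higher and 1 lower) summed to 3568 to 3725 in the wild-type libraries and to 1233 to 1262 in the others, mostly through Vim (log2 fold change -1.67). Endoderm markers (8 genes, 4 tested, 2 higher and 1 lower) summed to 178 to 207 and to 204 to 214, with Sox17 (log2 fold change 1.27) and Sox7 (-2.41) past both thresholds. Trophoblast markers (8 genes, 5 tested, none higher and 2 lower) summed to 1990 to 2007 and to 1008 to 1048, with Tfap2c (log2 fold change -1.36) past both thresholds. Most of this fall was that of Tfap2c, with 1429 and 1444 against 576 and 541. The part of any such cells in the Hox values was not tested.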

How the data were processed

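mRNA-seq libraries of 2 wild-type and 2 Bmal1-/- cultures were made with a stranded mRNA kit. Per the labels and the study's methods, the authors used bcl2fastq 2.18.0.12, cutadapt 1.9.1 and STAR 2.5.2b with the mm9 genome. The read counter, the annotation and the strand setting are not given in the sources used here, so antisense or overlapping transcripts may share reads with a Hox gene. The deposited values are a normalized signal, each gene's read count divided by a TMM scaling factor of its library. Whole reads were recovered as multiples of the smallest value above 0 (100% of values whole, tolerance 0.01 of a read). All 37310 identifiers matched the GENCODE annotation of NCBIM37 (mm9), which gave symbols, coordinates and exon lengths. A second identifier of Hoxa3 had no reads and was not counted as a gene.

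Genes whose mean value was 10 or more were tested by limma 3.58.1 in R 4.3.3 (lmFit, eBayes with trend) on log2(value + 1), 2 libraries against 2, with no covariate and Benjamini-Hochberg adjustment over the 14510 genes. Fold changes are on that scale and understate low genes. The ratio given with an exact 95% interval is that of summed reads after scaling for the libraries. Its interval covers counting error only. Replicates differed by more than counting noise (chi-square per degree of freedom 2.95 for wild-type and 1.94 for Bmal1-/-) and correlated at 0.995 and 0.996 on the log scale. The labels number the experiments alike in both genotypes and do not say whether a number marks a shared experiment. Libraries of the same number did not deviate together (correlation of deviations -0.02) and were treated as unpaired. This correlation cannot exclude a shared experiment. No batch is given, and each genotype was 1 line, so that genotype, clone and batch cannot be told apart.

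All 39 Hox genes enter the counts and sums. Those with over 3 reads in a library have their values given, and those tested have their fold change, except that 1 Hox gene and 2 genes of other lists are not reported here. From the other lists, genes past both thresholds or with the largest changes are named. The members, the gene lists and the tests were chosen with earlier results of these data known, and the lists were written by hand. Alternatives were other filters, pseudocounts, scalings and libraries left out, limma without trend, a replicate block, edgeR 4.0.16 and DESeq2 1.42.0 on the recovered reads. EdgeR and DESeq2 with no filter were added after seeing the data. Tests were tested on simulated data. Promoter windows came from RefSeq (GRCm38.p6), and no coordinates were moved between builds. Figures and counts used Python 3.11.15, pandas 2.3.3, scipy 1.17.1 and matplotlib 3.10.9.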

Additional observations from a re-analysis of the deposited data

How the results depend on the processing

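Direction held in all 256 recalculations of the 15 single Hox genes. In limma, other filters, the fit without trend and the replicate block leave a fold change as it is. Direction could not change in those, so only the remaining recalculations bear on it. By an adjusted p under 0.05 alone, whatever the fold change, 216 stayed on the same side of the threshold, 36 lost it and 4 gained it. Losses were among others those of Hoxd8 (9), Hoxb13 (8), Hoxc10 (7), Hoxc12 (5), Hoxb4 (3) and Hoxa10 (2). Hoxa7, Hoxa9, Hoxc13, Hoxd9 and Hoxd13 kept an adjusted p under 0.05 in every alternative that tested them. Of these, Hoxd9 fell under a 2-fold change with a pseudocount of 10 (log2 fold change 0.97) and after quantile normalization (0.92). Hoxa5 gained it under 2 alternatives and Hoxb9, as a lower value, under 2. With a mean of at least 100, which leaves 2 Hox genes, 318 genes passed both thresholds in all, 0 Hox genes did, 2 were at an adjusted p under 0.05 in limma and the Hox median was 0.42. A pseudocount of 10 gave 3 Hox genes past both thresholds and a median of 0.63, and quantile normalization a median of 0.65. With no fold threshold 7639 genes and 12 Hox genes passed. Hox genes at an adjusted p under 0.05 were 7 in DESeq2 and 6 in DESeq2 with no filter, where the median over the 38 Hox genes with a read was 1.10 (1.06 in edgeR with no filter). A limit of 10 reads instead of 3 left 20 Hox genes under it in all libraries. Leaving out 1 library at a time gave 4 to 9 Hox genes past both thresholds, 6 to 12 at an adjusted p under 0.05 (6 without Bmal1-/- replicate 2) and a median of 0.77 to 1.08, and the cause was not tested. The replicate block gave 7 past both thresholds and 13 at an adjusted p under 0.05, the added gene being Hoxa5 (limma adjusted p = 0.0295), and 1056 genes in all. The share of calls that were higher was 79.8%, and 60.7% after quantile normalization. The authors' scaling left the median of all tested genes at -0.03, and the other scalings between -0.05 and 0.03. Depth limits the 24 genes under the filter, where a few reads decide a value.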
